A study of Mus musculus with 32 samples.

Results

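N4-acetylcytidine (ac4C) is an acetylated cytidine that cells place in tRNA, ribosomal RNA and some messenger RNAs. The described peaks are those of the first conditional knockout (cKO) list of mouse hippocampus that share not 1 bp with any peak of the 2 control lists of the same set. They number 1108 of the 1887 peaks in the first cKO list (58.7%), they carry 1010 gene names, and they are called control-absent peaks here. The other 779 first cKO peaks overlap a control peak and are called control-matched. The 16 peak lists of the series hold 148981 peaks in all. Being control-absent is the rule by which these peaks were chosen and is not a finding about them.

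The series followed ac4C in the hippocampus of C57BL6/J mice during learning and memory. An ac4C antibody pulled down RNA fragments of about 200 nt for sequencing next to untreated input (acRIP-seq), in 16 captured and 16 input libraries, and each captured library has 1 deposited peak list. Groups C and L are represented by 3 homogenate lists apiece, all from day 6, and by 1 synapse list apiece on days 1, 6 and 20, and the cKO set holds 2 control (C) and 2 cKO lists. Inside the files the peak names of C and L read Control and Learning, and those of the cKO set begin with AAV, so that controls and cKO share that prefix. The labels give neither the deleted gene, nor a promoter, a Cre driver, an age or a pooling of animals. Nat10, the known writer of ac4C, has 0 peaks in each of the 4 lists of the cKO set, so its presence could not be used to check the labels. Whether lists came from separate animals is not stated, and p-values measure the spread between lists, which may be technical.

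Ac4C in messenger RNA is known as a mark written by the acetyltransferase Nat10 and has been tied to RNA stability and translation. In neurons, many messenger RNAs are carried into dendrites and translated near synapses, which is why a homogenate and a synapse fraction can hold different RNAs. A peak is a stretch where captured reads exceed the input. Its fold enrichment and q-value are the authors' own values for that peak, used here to describe and rank peaks within a list. The files hold no read counts, so depth is unknown, and a peak missing from a list may lie below the authors' threshold. The files mark every peak as plus strand, so a peak in overlapping genes cannot be given to one of them. Positions are of the mm10 build, and gene spans and start windows come from the RefSeq table of GRCm38.p6, the mm10 assembly. A start window runs from 250 bases before to 50 bases after an annotated gene start.

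Control-absent peaks fell at 3 kinds of place: 260 touched a gene start window, 512 lay elsewhere inside the gene that the authors name and 336 lay outside it. The windows below show that first kind in the genome of mm10, printed 5′ to 3′ on the gene's strand from RefSeq, with the bases that the peak covers in capitals. The first 3 are shown because the second cKO list also holds their peaks, with high folds in the first, and because they show how unlike such starts can be in base composition.
Tsg101, chr7:46919920-46920219, minus strand: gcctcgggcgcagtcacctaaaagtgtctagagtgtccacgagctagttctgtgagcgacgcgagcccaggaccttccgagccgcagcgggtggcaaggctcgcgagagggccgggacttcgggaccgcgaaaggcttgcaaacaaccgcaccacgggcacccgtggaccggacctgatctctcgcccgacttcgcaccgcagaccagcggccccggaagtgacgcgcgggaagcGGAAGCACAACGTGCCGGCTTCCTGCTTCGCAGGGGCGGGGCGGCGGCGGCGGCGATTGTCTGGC
Zbtb18, chr1:177442101-177442400, plus strand: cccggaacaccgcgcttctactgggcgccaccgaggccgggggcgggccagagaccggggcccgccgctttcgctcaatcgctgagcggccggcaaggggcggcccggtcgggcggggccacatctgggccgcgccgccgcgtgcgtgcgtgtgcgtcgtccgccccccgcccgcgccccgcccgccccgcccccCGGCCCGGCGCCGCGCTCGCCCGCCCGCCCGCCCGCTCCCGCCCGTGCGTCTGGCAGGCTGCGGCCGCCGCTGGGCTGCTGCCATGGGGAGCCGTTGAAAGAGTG
Lamb2, chr9:108479612-108479911, plus strand: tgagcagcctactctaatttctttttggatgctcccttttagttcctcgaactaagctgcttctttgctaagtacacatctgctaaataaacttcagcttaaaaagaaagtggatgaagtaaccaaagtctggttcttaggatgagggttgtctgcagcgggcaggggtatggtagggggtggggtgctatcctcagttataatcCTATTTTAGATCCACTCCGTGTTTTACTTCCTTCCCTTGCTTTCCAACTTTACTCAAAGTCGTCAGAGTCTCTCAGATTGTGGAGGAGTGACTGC
The next window is shown because its peak was overlapped in all 12 homogenate and synapse lists, and the last because its peak was in no other list.
Frrs1l, chr4:56990342-56990641, minus strand: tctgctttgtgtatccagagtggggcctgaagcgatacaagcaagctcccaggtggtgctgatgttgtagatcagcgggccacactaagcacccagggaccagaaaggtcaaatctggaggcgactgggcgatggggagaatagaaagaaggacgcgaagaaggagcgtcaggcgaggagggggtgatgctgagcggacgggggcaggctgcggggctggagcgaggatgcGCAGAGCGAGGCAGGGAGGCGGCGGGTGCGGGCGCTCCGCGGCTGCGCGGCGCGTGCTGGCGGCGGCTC
Ahdc1, chr4:133011256-133011555, plus strand: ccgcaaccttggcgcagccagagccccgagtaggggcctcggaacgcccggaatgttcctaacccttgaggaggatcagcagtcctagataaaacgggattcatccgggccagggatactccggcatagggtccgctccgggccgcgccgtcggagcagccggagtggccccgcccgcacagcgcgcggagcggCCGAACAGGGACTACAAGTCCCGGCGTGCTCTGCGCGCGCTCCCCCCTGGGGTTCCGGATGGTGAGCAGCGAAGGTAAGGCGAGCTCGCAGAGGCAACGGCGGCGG

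The 5 windows ranged from 44.0% GC at Lamb2, which encodes a laminin chain, to 81.7% at Zbtb18, a zinc-finger repressor of neuronal development. Tsg101, a subunit of the ESCRT-I sorting complex, had 68.7% GC, Ahdc1 69.0% and Frrs1l, a factor in the assembly of AMPA receptors, 65.7%. Over the 298 windows that control-absent peaks touched, GC content was 63.6% ± 10.3 (SD over windows). It was 67.5% ± 8.48 over the 369 windows touched by control-matched peaks and 53.8% ± 11.3 over all 32817 windows. The letters CCGCCG on either strand were in 48.3% of the windows touched by control-absent peaks, 66.7% of those touched by control-matched peaks and 18.7% of all windows. The looser pattern CNNCNNCNNCNN on either strand was in 98.7%, 100% and 88.1% of these windows, so it separates few of them. All matches of CNNCNNCNNCNN were counted, and a match may overlap a CCGCCG. These shares describe letters in the windows, and no test was made of them.

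Most control-absent peaks had the shortest width that the list holds. The median was 150 bp, which is also the lower limit of the first cKO list, and 925 of the 1108 (83.5%) were exactly 150 bp wide. Of the control-matched peaks, 328 of 779 (42.1%) had that width, with a median of 159 bp. At the other end, 60 control-absent peaks reached 200 bp, 26 reached 300 bp and 1 reached 500 bp. Among the widest are peaks named Tsc22d1 (424 bp), Btbd3 (421 bp), Asb7 (409 bp) and Lars2 (403 bp). A narrow peak has less length with which to meet a control peak, so width and the rule are linked and no test was made. The 4 lists of the set also differ in their shortest peak, which was 150 bp in the first control and the first cKO list, 200 bp in the second control list and 500 bp in the second cKO list.

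**Figure D1:**
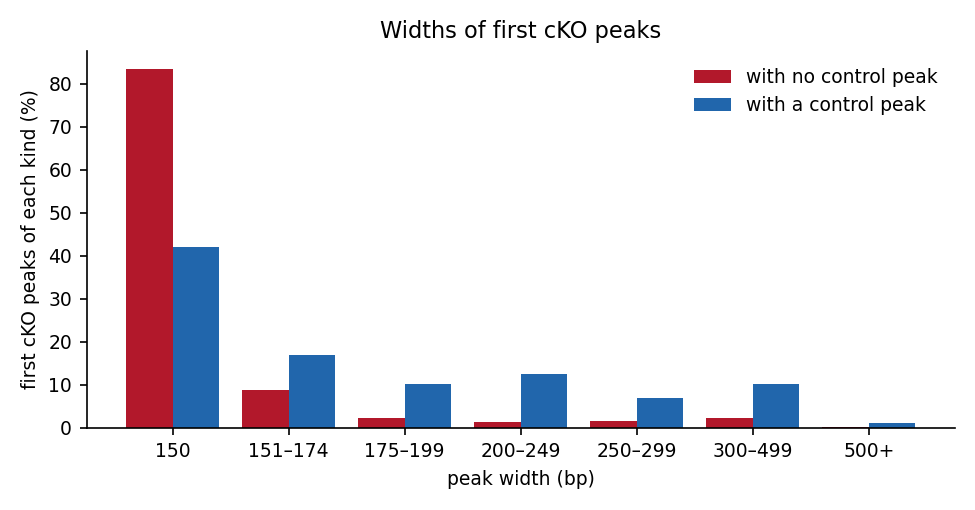
Widths of first cKO peaks, as the share (%) of peaks of each kind per width class in bp, with the 1108 peaks with no control peak in red and the 779 with a control peak in blue. The class of exactly 150 bp holds 83.5% of the red and 42.1% of the blue peaks.

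The authors' fold of control-absent peaks had a median of 4.75 (range 2.09 to 42.0), against 6.34 (2.28 to 139.9) for control-matched peaks. The median -log10 q was 3.76 and 7.14. By fold, the median control-absent peak stood at the 41.4th percentile of its list. These values come from the list that the rule used and are given as a description.

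How far the rule separates the lists can be read from the controls themselves. Of the first control list's 4446 peaks, 41.6% had no peak of the second control list, and of the second list's 5132 peaks, 51.7% had none of the first. In the second cKO list, 127 of 422 peaks (30.1%) had no control peak. Against one control list alone, 68.7% (first) and 65.4% (second) of first cKO peaks were unmatched, and 58.7% against both. The 58.7% stands above the shares by which the control lists missed each other. It was counted against both control lists, and those shares against the other control list alone. The like first cKO shares are the 68.7% and 65.4%. With every list restricted to peaks of at least 200 bp, the shortest width of the second control list, 69 of 300 first cKO peaks (23.0%) had no control peak. The shares between the control lists were not recomputed at that width, so the order there is unknown. No test was made of these differences.

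Distances showed that few control-absent peaks were near misses. The median gap to the nearest control peak was 24303 bp. A gap of at most 100 bp was found for 42 peaks, of at most 1000 bp for 180 (16.2%) and of over 10000 bp for 705 (63.6%). The peaks nearest to a control peak were 1 at Kctd1, a BTB-domain protein (2 bp gap), 1 at Akt1, a kinase of the insulin pathway (6 bp), and 1 at Aatk, a kinase of the nervous system (8 bp). Just on the other side of the rule, peaks at Sox4, a neural transcription factor, and Atp5j, an ATP synthase subunit, shared 2 bp with a control peak, and 1 at Ppp2r2a, a phosphatase subunit, shared 5 bp.

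A control-absent peak often carried the name of a gene that also named control peaks at other positions. This held for 676 of the 1108 peaks (61.0%), and 404 of these carried names with peaks in both control lists. The other 432 peaks carried 400 gene names without a control peak of any kind. The first cKO list has 1643 gene names, so that 24.3% of them had no control peak. Both a control-absent and a control-matched peak were found under 104 gene names. All these counts follow the authors' names, and 336 of the 1108 peaks lie outside the named gene. Of the 400 genes, 42 had a peak in the second cKO list, 368 in a homogenate list and 361 in a synapse list, and 11 had no peak in any other list of the series. Those lists are rich in names. Of the 13143 gene names of the series, single homogenate lists carry 8108 to 9174, single synapse lists 3126 to 3781 and the second cKO list 414. The like shares over all first cKO genes were not computed, so these counts are not read as a trait of the 400 genes. More than 1 control-absent peak carried the same name for 92 genes, led by Tmem201 with 4 and by Tgfbr1, Prpf19, Atp9a and Pom121 with 3 each. The peaks named Tgfbr1 all lay outside that gene, 517, 53371 and 503 bp away. Some of the peaks named Tmem201, Prpf19, Atp9a and Pom121 also lay outside the gene.

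The place of the peak differed between the 2 kinds of first cKO peak. Of control-absent peaks, 23.5% touched a gene start window, 46.2% lay elsewhere inside the named gene and 30.3% lay outside it. Of control-matched peaks, the shares were 39.0% (304 peaks), 56.1% (437) and 4.88% (38). Among peaks inside a named gene whose strand is known, 317 of 582 control-absent peaks (54.5%) lay in the first 10% of the gene's span, against 464 of 590 control-matched peaks (78.6%). Of the 336 control-absent peaks outside their named gene, 183 were in the span of another gene and 153 in none. Within 1000 bp of the named gene lay 158 of the 336. For 126 of these the strand is known, and 101 (80.2%) lay before the gene's start rather than after its end. Peaks within 1000 bp include those 203 bp from Lrrtm1, a synaptic adhesion protein, 205 bp from Iqsec2, a postsynaptic exchange factor, and 448 bp from Bsn, which encodes the active-zone scaffold Bassoon.

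The second cKO list offers a replicate that the rule did not use. It overlapped 115 control-absent peaks, or 10.4% (95% Wilson interval 8.72 to 12.3), against 284 control-matched peaks, or 36.5% (33.2 to 39.9), and 21.1% of all first cKO peaks. Intervals cover counting error only. This list is short, with 422 peaks of at least 500 bp, and 376 of them (89.1%) overlapped a first cKO peak of either kind. Of its 127 peaks without a control peak, 98 (77.2%) overlapped a first cKO peak. A useful contrast is the set of 4214 peaks found in 1 control list and in neither the other control list nor the first cKO list, called one-control peaks here. The second cKO list overlapped 17 of these, or 0.403% (0.252 to 0.645). These peaks were chosen to be absent from the first cKO list and the control-absent peaks to be present in it, so the contrast is a description with no test.

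Of the 115 control-absent peaks found in the second cKO list, 100 met a second cKO peak that no control peak overlaps, and 15 met a wider one that does touch a control peak elsewhere along its length. The 115 stood high in the first list, with a median fold of 8.72 and a median percentile of 83.7 among first cKO peaks. They carry 112 gene names. Of these peaks, 84 (73.0%) were also in a homogenate list, 63 (54.8%) in a synapse list and 27 in none of the 12. The overlap with the second cKO list was 13.1% for start-window peaks, 10.9% for other peaks inside the named gene and 7.44% for peaks outside it. Control-matched peaks had the same order, at 39.5%, 35.0% and 28.9%.

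By fold, the first of the peaks that both cKO lists hold lay in Gria3, the AMPA receptor subunit GluA3. It measured 222 bp at chrX:41401209-41401430, with a fold of 27.7 in the first cKO list and 6.23 in the second, where it lay in a 935 bp peak. Of the 12 other lists, the third homogenate L list held it at a fold of 30.7, and the nearest control peak was 405622 bp away. Mal2, a protein of membrane transport, had a 183 bp peak at chr15:54571326-54571508 with folds of 22.2 and 8.19 in the 2 cKO lists. It was also in 3 homogenate lists, at folds of 8.11 (second C), 2.99 (first L) and 4.80 (second L), and in 2 synapse lists, at 12 (C on day 1) and 5.48 (L on day 6). Kcna2, the potassium channel Kv1.2, had folds of 18.3 and 5.18 in the cKO lists. Its 195 bp peak at chr3:107107716-107107910 was in all 6 homogenate lists, at 4.32, 3.72 and 4.44 in C and 5.15, 3.47 and 4.34 in L. In the synapse it was in the lists of day 6, at 3.79 in C and 4.28 in L. None of these 3 genes had a peak in either control list. Their C and L values in the homogenate lay in overlapping ranges for Kcna2, which has all 6.

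Mobp, a myelin protein, had folds of 19.6 and 5.96 in the 2 cKO lists and 2.81 to 3.93 in 4 homogenate lists. It had a control peak 388 bp away, so the gene itself was captured in a control. Abhd12, a lysophospholipid lipase, had folds of 17.1 and 3.77 and was in none of the 12 lists. The peak named Prox1, after the transcription factor that marks dentate granule cells, lay 46581 bp from that gene with folds of 21.4 and 13.7, and was likewise in none of the 12. Names of peaks outside their gene are therefore the authors' assignments and not a statement about the transcript. Hipk2, a nuclear kinase, had folds of 13.5 and 4.05 and was in all 6 homogenate lists (5.08 to 37.6) and 4 synapse lists (2.11 to 14.1). The peak also lies in the span of Tbxas1, so it cannot be given to either gene. Tsg101, whose start is printed above, had folds of 13.5 and 7.17, and was in 5 homogenate lists (3.47 to 9.61) and in the synapse lists of C on day 20 (5.31) and L on day 1 (6.07).

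Beyond the cKO set, many control-absent peaks recurred in the wild-type lists. A homogenate list overlapped 558 of them (50.4%, against 68.5% of all first cKO peaks) and a synapse list 419 (37.8%, against 59.5%). Both fractions held 328, the homogenate without the synapse 230 and the synapse without the homogenate 91. All 6 homogenate lists held 100 (9.03%, against 23.0%), and all 6 synapse lists held 5 (0.451%, against 5.51%). None of the 12 lists held 459 (41.4%, against 24.8%), and 432 of these were absent from the second cKO list as well. Among control-matched peaks, 94.2% were in a homogenate list, 90.4% in a synapse list and 9 (1.16%) in none of the 12. The median number of lists was 1 of 12 for control-absent and 8 of 12 for control-matched peaks.

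**Figure D2:**
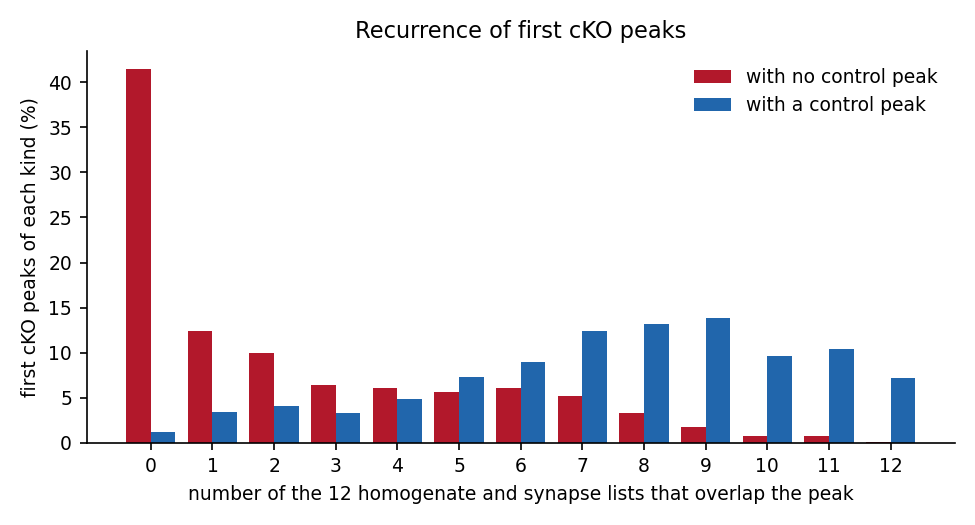
Number of the 12 homogenate and synapse lists that overlap each first cKO peak (horizontal axis), as the share (%) of peaks of each kind, with the peaks with no control peak in red and those with a control peak in blue. The red bars are highest at 0 lists (41.4%) and fall to 1 peak at 12 lists, and the blue bars are highest at 9 lists (13.9%).

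List by list, the homogenate C lists overlapped 25.1%, 30.3% and 30.0% of control-absent peaks and the homogenate L lists 26.4%, 30.9% and 26.1%. Of all first cKO peaks they overlapped 42.0%, 51.2% and 48.0% (C) and 43.9%, 49.8% and 45.6% (L). For control-absent peaks the C lists averaged 28.5% ± 2.92 and the L lists 27.8% ± 2.69 (SD, n = 3 lists), and the 2 groups overlapped (exact two-sided permutation test, p = 1, where 3 against 3 lists cannot go below 0.1). In the synapse, the C lists overlapped 14.3%, 10.7% and 11% on days 1, 6 and 20 and the L lists 12%, 9.93% and 10.2%. Of all first cKO peaks the C lists overlapped 33.4%, 26.3% and 25.1% and the L lists 30.3%, 24.0% and 27.8%. For control-absent peaks L was below C on all 3 days, with a mean difference of -1.29 percentage points. An exact two-sided sign-flip test over the 3 days gave p = 0.25, the smallest it can give. For day 6, the synapse L list stops part-way through chromosome 7, and among the 938 control-absent peaks within its reach the mean difference was -0.60 points. No difference between L and C in these shares was thus detectable with so few lists.

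The share overlapped was higher in the homogenate than in the synapse, at 28.1% ± 2.54 against 11.4% ± 1.60 (SD, n = 6 lists each), and the groups did not overlap. The exact two-sided permutation test over lists gave p = 0.00216, adjusted p = 0.00361 over 5 tests, the smallest it allows. With the C and L lists of one number or day averaged as 1 unit, the exact permutation test of 3 against 3 units gave p = 0.1, which is again the smallest possible. All first cKO peaks showed a like gap, at 46.7% ± 3.54 against 27.8% ± 3.51, as did control-matched peaks, at 73.2% ± 5.33 against 51.2% ± 6.55. The homogenate lists cover more of the genome, 6.16 to 12.2 Mb against 1.67 to 3.24 Mb, and the part of this in the difference was not tested.

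In 12 of 12 homogenate and synapse lists, a smaller share of control-absent than of control-matched peaks was overlapped. The mean over lists was 19.7% against 62.2%, a difference of -42.5 percentage points (exact two-sided sign-flip test over 12 lists, p = 0.000488, adjusted p = 0.00122, the smallest possible). The control-matched peaks were selected for recurrence in a control list, so the rule itself favours this direction. The 12 lists measured the same peaks, so their signs are not independent. The p-value therefore cannot separate a trait of the peaks from the rule, and no conclusion is drawn from it. The difference was -37.5 points among peaks of exactly 150 bp (925 and 328 peaks) and -39.7 among peaks with a fold of 4 to 6 (428 and 224 peaks), both chosen after seeing the data. One-control peaks are the closer comparison, as they too were missed by the lists beside their own, and 30.0% of them were overlapped on average. The difference, control-absent minus one-control, was -10.2 points and again had this sign in 12 of 12 lists (exact two-sided sign-flip test, p = 0.000488, adjusted p = 0.00122). One-control peaks are wider, with a median of 296.5 bp, and fewer of them (9.59%) touch a start window. With every peak cut to its midpoint the difference was -10.9 points. Both sets were chosen by presence or absence in lists of the cKO set, and the 12 lists again measured the same peaks. This p-value too cannot separate a trait of the peaks from how the sets were built. Against the one-control peaks of the first control list alone, which has the same shortest peak as the first cKO list, the difference was -5.32 points.

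**Figure D3:**
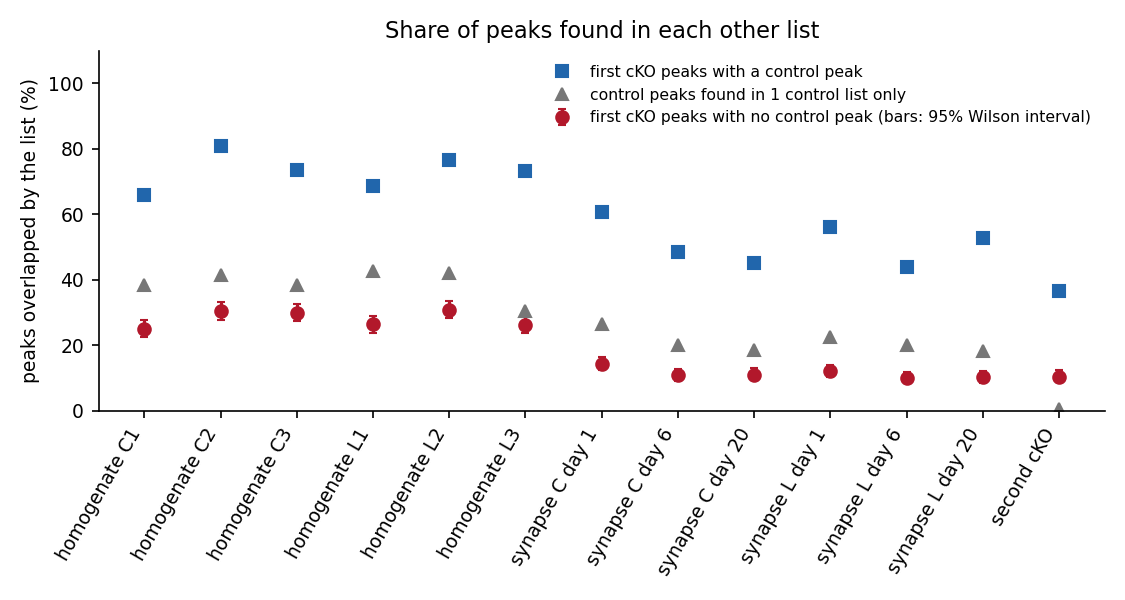
Share (%) of peaks overlapped by 1 bp or more in each of the 12 homogenate and synapse lists and the second cKO list, for the 1108 first cKO peaks with no control peak (red, with 95% Wilson intervals), the 779 with a control peak (blue) and the 4214 peaks of 1 control list only (grey). Red lies below blue and grey in all 12 homogenate and synapse lists, and in the second cKO list red stands at 10.4%, blue at 36.5% and grey at 0.403%.

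Recurrence varied with the place of the peak. Start-window peaks were overlapped by 34.6% to 53.1% in the 6 homogenate lists and by 11.5% to 15.8% in the 6 synapse lists. Other peaks inside the named gene ranged from 29.3% to 35.2% in the homogenate and from 12.3% to 19.9% in the synapse. Peaks outside the named gene ranged from 6.25% to 10.1% and from 3.27% to 6.55%. None of the 12 lists held 61 of 260 start-window peaks (23.5%), 160 of 512 other inside peaks (31.3%) and 238 of 336 outside peaks (70.8%). Of the outside peaks within 1000 bp of their gene, 126 of 158 (79.7%) were in none of the 12 lists. The second cKO list held 18 of them (11.4%), against 10.4% of all control-absent peaks. Of the 11 control-matched peaks at such places, 1 (9.09%) was in none of the 12 lists and 6 (54.5%) were in the second cKO list. Against control-matched peaks of the same place, the mean difference over lists was -32.4 points at start windows, -40.3 elsewhere inside and -40.4 outside, a split that was chosen after seeing the data. These shares are descriptions of peaks that share their lists, and their order by place was not tested.

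**Figure D4:**
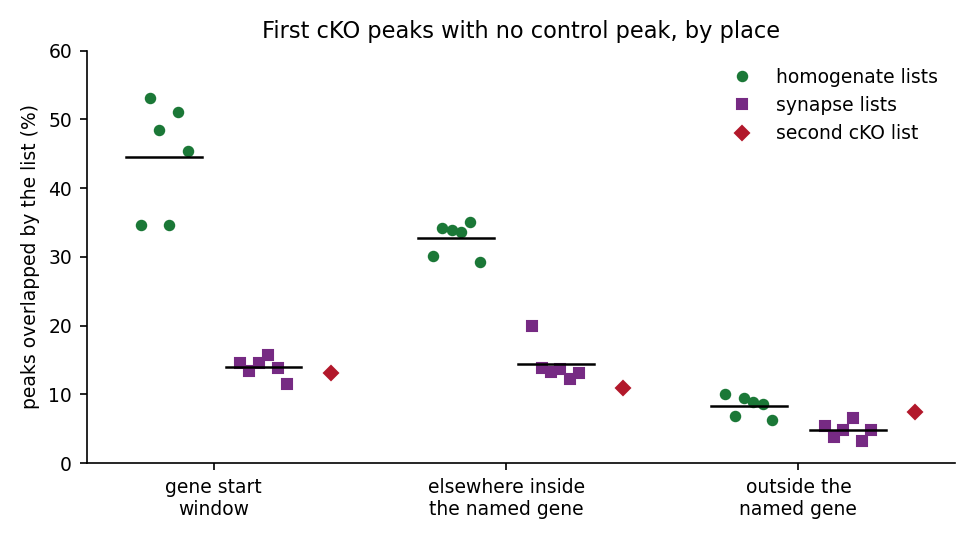
Share (%) of first cKO peaks with no control peak that each list overlaps, by the place of the peak (260, 512 and 336 peaks). Green points are the 6 homogenate lists and purple squares the 6 synapse lists, with black lines at their means, and the red diamond is the second cKO list. Outside the named gene no list exceeds 10.1%, and homogenate lists reach 53.1% at start windows.

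The peaks that most lists hold show that a control-absent position can be a common one in other hippocampal lists. The Frrs1l peak printed above was in all 12 lists, at folds of 3.31, 17.8 and 25.0 in homogenate C and 13, 21.4 and 14.7 in homogenate L. In the synapse its folds on days 1, 6 and 20 were 3.63, 10.6 and 10.4 in C and 2.90, 5.79 and 8.61 in L. Its fold in the first cKO list was 4.45, it was not in the second, and the edge of a second-control peak lay 11 bp away. The peak named Srebf1, a regulator of sterol synthesis, had the highest fold of all control-absent peaks, 42.0. It lies at chr11:60239399-60239759 in the span of Tom1l2, a gene of vesicle transport, 15212 bp from Srebf1 and 675 bp from a control peak. It was in 5 homogenate lists (18 to 106.1) and all 6 synapse lists (3.88 to 36.1), and not in the second cKO list. Where at least 50% of the peak had to be covered, it was in 7 of the 12 lists in place of 11, and the Frrs1l peak in 10 in place of 12.

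The kinase genes Map3k10 (fold 12.1) and Map3k9 (6.34) each had a peak in 6 homogenate and 5 synapse lists, and Map3k9 had no control peak anywhere. Arhgef17 had no control peak either and was in the same numbers of lists, at 3.16 to 8.72 in the homogenate and 4.57 to 19.2 in the synapse. Ubr7 (fold 9.51), Fjx1 (5.87), Xkr4 (6.05) and Kctd1 (14.8) also reached 6 and 5 lists. All 4 were in the second cKO list, as was the Map3k10 peak (5.99 there). Zmynd11, a reader of histone methylation, was in 5 homogenate and all 6 synapse lists at a first cKO fold of 3.96. Of these 10 most recurrent peaks, all but those of Ubr7, Map3k9 and Arhgef17 had a control peak within 11 to 723 bp.

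The 432 peaks that no other list holds were nearly all of the shortest width, with 92.8% at 150 bp and a median fold of 4.08. Of these, 219 (50.7%) lay outside their named gene. Ntrk3, the neurotrophin receptor TrkC, led them with a fold of 16.3 in a 157 bp peak, 386371 bp from a control peak. Serinc1, of a family that incorporates serine into membrane lipids, had 16.1. Peaks named Atp6v1b2 (13.2), a proton pump subunit, and Tars (12.7), the threonyl-tRNA synthetase, lay in the spans of Slc18a1 and Adamts12. Ahdc1 had 9.50 and Ptch1, the Hedgehog receptor, 8.72. Smad4, the shared mediator of TGF-beta signalling, had 9.08 and a control peak 453 bp away. Wdr47, a microtubule-associated protein, had 8.06 with no control peak in its gene. With 1 list each, these values have no replicate.

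Gene groups were counted over genes with a peak in any of the 16 lists, where 1010 of 13143 (7.68%) had a control-absent peak and 28.8% a control peak. The lists were chosen with earlier results known, and these counts carry no test. They follow the authors' names, and of the 1108 peaks behind them 336 lie outside the named gene. Of the genes of the postsynaptic density and glutamate receptors, 7 of 51 (13.7%) had a control-absent peak. Beside Gria3, Shank1, a postsynaptic scaffold, was in both cKO lists, at 5.64 and 3.63. Of presynaptic genes, 5 of 52 (9.62%) had one, among them Cplx2, a regulator of vesicle fusion, whose peak (fold 4.55) was in all 6 homogenate lists at 30.4 to 144.3 and 2 synapse lists. Of ion channel genes, 9 of 51 (17.6%) had one, and 6 of these had no control peak. Of their 10 peaks, 4 lay outside the named gene, among them that of Kcnj10, an inward rectifier known from glia, which was in both cKO lists (9.51 and 5.74).

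Immediate early genes, which neurons switch on within minutes of activity, gave 4 of 28 (14.3%). All 4 had control peaks elsewhere, and 50% of the group had a control peak, against 28.8% of all genes. They are Dusp1 (fold 6.34), a phosphatase of MAP kinases, Jund (5.4), Rheb (4.84), an activator of mTOR, and Egr4 (3.17), and the peaks of Dusp1 and Egr4 lay outside the gene. Of calcium, cAMP and MAPK signalling genes, 10 of 59 (16.9%) had 14 control-absent peaks, while 27 of the 59 (45.8%) had a first cKO peak of either kind. Rcan1, an inhibitor of calcineurin, stood at 11 in the first and 5.83 in the second cKO list, in 4 homogenate lists (6.72 to 44.4) and in no synapse list. Splicing factors gave 12 of 100 (12%), with Rbfox3, the neuronal splicing factor NeuN, at 11 and 4.46 and the core splicing protein gene Snrpb at 9.28 and 6.94 in the 2 cKO lists. The genes of RNA modification gave 1 of 36, Fto, a demethylase of N6-methyladenosine. Its start-window peak (7.13) was 42 bp from a control peak and in all 6 homogenate lists at 8.99 to 18.8.

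The next groups ranged from 0 for clustered histone genes to 11.5% for Rab GTPases, on both sides of the background of 7.68%. Cytosolic ribosomal protein genes gave 4 of 61 (6.56%), but 3 of the 4 peaks lay outside the named gene and in the span of another (Rps20, Rpl31 and Rps28, 41731, 14090 and 5307 bp away). Nuclear genes of the respiratory chain gave 7 of 93 (7.53%), translation factors 7 of 74 (9.46%), heat shock proteins 5 of 78 (6.41%) and Zfp zinc-finger genes 21 of 282 (7.45%). In the Zfp group, 11 of the 21 genes had no control peak, and 14.2% of that group had one at all. Zfp367 was in both cKO lists (10.3 and 7.49). Ubiquitin and proteasome genes gave 21 of 205 (10.2%), chromatin genes 8 of 71 (11.3%), solute carriers 24 of 265 (9.06%), Rab GTPases 6 of 52 (11.5%) and cytoskeletal genes 5 of 52 (9.62%). GABA genes gave 1 of 21, cadherins 1 of 79 and clustered histone genes 0 of 62.

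**Figure D5:**
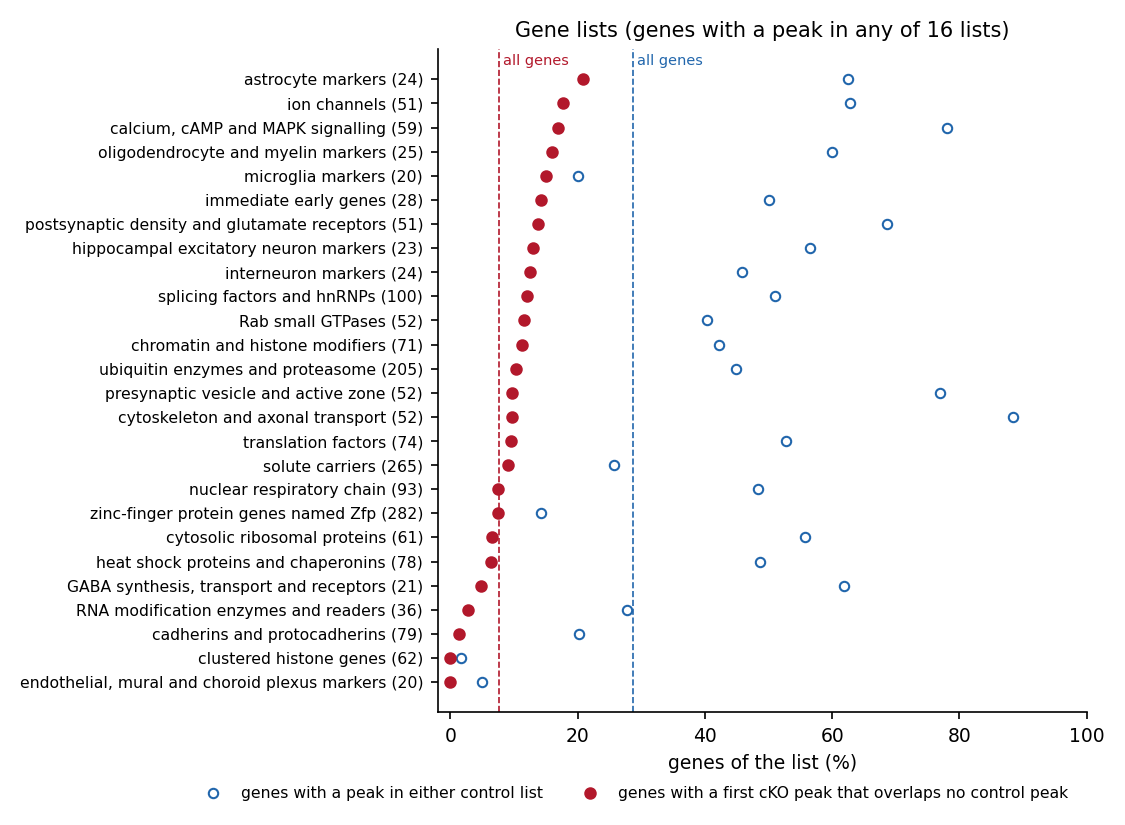
Share (%) of the genes of each list that have a control-absent first cKO peak (filled red) or a peak in either control list (open blue), among genes with a peak in any of 16 lists, whose number stands beside each name. Dashed lines mark all genes (7.68% and 28.8%), and the red points range from 0 for clustered histone and for endothelial, mural and choroid plexus markers to 20.8% for astrocyte markers.

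Markers of the cell types that hippocampal tissue holds were counted in the same way. Astrocyte markers gave 5 of 24 (20.8%), oligodendrocyte and myelin markers 4 of 25 (16%), microglia markers 3 of 20 (15%), excitatory neuron markers 3 of 23 (13%) and interneuron markers 3 of 24 (12.5%). Of the genes in these marker lists, 62.5%, 60%, 20%, 56.5% and 45.8% had a control peak, against 28.8% of all genes. Only 6, 6, 4, 6 and 3 of them had a first cKO peak. Of those, 83.3%, 66.7%, 75%, 50% and 100% had a control-absent one, against 61.5% over all genes. The peaks outside the named gene numbered 1 of 5, 0 of 4, 2 of 3, 2 of 3 and 2 of 3 in these marker lists. Those in no other list numbered 4, 1, 1, 1 and 1 in the same order. Genes with a control-absent peak that the second cKO list also held numbered 0, 3, 1, 1 and 0. Markers of endothelial, mural and choroid plexus cells gave 0 of 20. Of the myelin genes, Mobp, Galc, a lysosomal enzyme of myelin lipids (11.1 and 6.74), and Olig1, a transcription factor of the lineage (10.6 and 2.64), were in both cKO lists. The microglial receptor gene Mertk stood at 11.9 and 5.43 in the cKO lists and at 4.31 to 12.7 in 5 homogenate lists. Reln, made by Cajal-Retzius cells and interneurons, had a peak (4.75) in all 6 homogenate and 3 synapse lists and no control peak. Of 6 defining astrocyte markers, 4 had a peak in each control list and 1 in the first cKO list. The second cKO list held 0 of these, and 0 of the 6 had a control-absent peak. In the same order of lists (first control, second control, first cKO, second cKO), the counts were 4, 4, 2 and 2 of 6 oligodendrocyte markers and 2, 3, 3 and 1 of 6 microglia markers. They were 2, 3, 2 and 2 of 5 excitatory neuron markers and 1, 1, 0 and 0 of 4 interneuron markers. The 5 endothelial and mural and the 3 choroid plexus markers had a peak in none of the 4 lists of the set. The 4 lists themselves carry 2916, 3165, 1643 and 414 gene names in that order, so a longer list has more genes that can include a marker. The part of list length in these counts was not tested. In bulk tissue, fewer cells of a type and less RNA per cell cannot be told apart, and the part of cell composition was not tested either.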

How the data were processed

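Per the labels' protocols, RNA was fragmented, captured with the ac4C antibody and sequenced beside its input. The submitters' processing notes name FastQC, cutadapt 1.9.3, HISAT2 2.0.4 and mm10; the peak caller is not given in the sources used here. The columns deposited for a peak are, per the file headers, its gene name, a score, a fold enrichment (a ratio), and its p-value and q-value as -log10. Lists were called per captured library. Positions were read as 1-based and inclusive.

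Peaks sharing 1 bp or more were counted as overlapping. Symbols were updated through the RefSeq table, where 12937 of 13302 names were current, 214 were updated and 151 kept. Each list's share of overlapped peaks was compared with exact permutation or sign-flip tests, with Benjamini-Hochberg adjustment over 5 tests (Python 3.11.15, numpy 2.4.6, scipy 1.17.1). These routines were tested on simulated data. The alternatives tried were other overlap rules, fold, q and width minima, lists left out and units averaged.

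The members, gene lists and tests were chosen with earlier results of these data known. Genes were named by rank of the authors' fold, number of lists, width, number of peaks and distance to a control peak, and up to 4 per gene list, skipping predicted symbols, and 1 gene so ranked is not reported here. Genes of starts shown were taken by fold or number of lists. Same-numbered homogenate lists deviated together in gene presence (r = 0.314, 0.221 and 0.116 over 12908 genes). Equal numbers were therefore paired or averaged in alternatives, while the main homogenate tests left them unpaired. The pairing comes from the data and not the labels.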

Additional observations from a re-analysis of the deposited data

How the results depend on the processing

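The number of control-absent peaks was 1066 to 1192 under the other overlap rules and up to 1296 against 1 control list. With all lists restricted to a fold of at least 5 it was 557 of 987 (56.4%), a share close to the main 58.7%. With peaks of at least 200 bp it was 69 of 300, and the share itself dropped to 23.0%; the cause was not tested. The second cKO list overlapped 113 to 117 under the other overlap rules, 62 of 440 at a fold of at least 5, and the 1 peak of at least 500 bp. By place, it overlapped 34, 56 and 25 of the peaks at gene starts, elsewhere inside and outside. Genes without a control peak numbered 400, and 557 to 608 with 1 control list left out, of which 608 without the second. The homogenate difference between L and C was -0.69 points, ran from -2.38 to 0.24 with 1 list left out, and was -0.69 with the replicate block, which pairs equal numbers (exact sign-flip test, p = 1). In the synapse it was -1.53 to -0.81 with a day left out. Homogenate against synapse kept 16.8 points but went to an exact permutation p = 0.1 with C and L lists averaged as 1 unit, by the number of units. Of 64 alternatives, 51 kept their direction and side of the threshold or stayed within 1.5 times. For 52 named peaks, 15 of 156 recomputed numbers of lists moved by over 1.5 times. Depth is unknown, and the short second cKO list limits what can be found in both cKO lists.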

Other observations

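The deposited fold of first cKO peaks often falls on whole multiples of 0.792. This held for 576 of 1108 control-absent peaks (52.0%) and for 332 of 779 control-matched peaks (42.6%), within 0.01 of a multiple. The most frequent fold, 3.17, was shared by 138 control-absent peaks, and 773 (69.8%) shared their fold with another. At start windows 68.8% of control-absent peaks were at such a multiple, elsewhere inside the named gene 38.1% and outside it 60.1%. The median fold was 4.75 for peaks at a multiple and 4.73 for the others. The second cKO list held 12.5% of the former and 8.08% of the latter, and a homogenate list held 47.0% and 53.9%.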
